A study of Homo sapiens with 6 samples.

Results

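The genes of cornification, the program by which keratinocytes build the protein and lipid shell of the outer epidermis, were followed in MCF10DCIS.com cells after silencing of WDR5. The group was a list of 41 gene symbols, matched by name, and all 41 had a row among the 26334 genes of the deposited count table. MCF10DCIS.com is an established basal-like human breast cancer cell line of the MCF10 series that forms lesions resembling ductal carcinoma in situ, and WDR5 is a WD40-repeat subunit of the complexes that methylate histone H3 at lysine 4. RNA of 3 control libraries (shLuc, a hairpin against luciferase, which the cells lack) and 3 silenced libraries (shWDR5, described in the study's methods as a pool of hairpins) was sequenced, and the comparison asks which transcripts changed when WDR5 was silenced. Both groups were infected with a pRSI hairpin vector that also carried TagRFP and a puromycin marker, were selected with 3 µg/ml puromycin, and grew in DMEM/F12 with 5% horse serum and 1.05 mM CaCl2. All libraries came from 1 cell line, and the labels number the replicates without saying whether they were separate cultures, so p-values measure the spread between these libraries.

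In the epidermis, cells leaving the basal layer make precursor proteins such as involucrin, loricrin and the small proline-rich (SPRR) proteins, which transglutaminases cross-link under the plasma membrane into the cornified envelope. Filaggrin and its relatives bundle keratins, lipoxygenases and ceramide enzymes provide and attach the barrier lipids, and proteases, protease inhibitors and adhesion proteins regulate how the outermost cells are shed. Many of the precursor genes lie side by side on chromosome 1 in the epidermal differentiation complex, and calcium and AP-1 transcription factors are known to switch on several of them.

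Promoter sequence was examined because members that sit together in the genome moved in different directions. Promoters in RefSeq (GRCh38.p14, a later build than the hg19 of the count table) were matched for 32 of the 41 members, each as 250 bases before and 50 bases after the gene start. The AP-1 letters TGANTCA, which read the same on both strands, were present in 13 of these 32 promoters (40.6%) and in 7.76% of the 27305 promoters of the RefSeq table. TATAAA, searched on both strands, was also present in 13 of 32 (40.6%), compared with 11.95% of all promoters, and 9 members held both motifs, as did 369 promoters of the table (1.35%). AP-1 letters were found in 10 of the 14 matched members of the epidermal differentiation complex and in 3 of the 18 matched members elsewhere. The 200 bases upstream of 4 starts are shown, for a pair of members that rose after WDR5 silencing (SPRR2A, FLG) and a pair that fell (SPRR1B, IVL), with AP-1 and TATA letters in capitals. They were read in the direction of transcription, SPRR2A from chr1:153057513-153057712 (minus strand), FLG from chr1:152325240-152325439 (minus), SPRR1B from chr1:153031003-153031202 (plus) and IVL from chr1:152908346-152908545 (plus).
SPRR2A: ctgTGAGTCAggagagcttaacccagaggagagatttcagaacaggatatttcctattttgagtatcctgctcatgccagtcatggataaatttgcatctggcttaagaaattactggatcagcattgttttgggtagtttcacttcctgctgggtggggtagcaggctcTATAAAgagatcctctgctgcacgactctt
FLG: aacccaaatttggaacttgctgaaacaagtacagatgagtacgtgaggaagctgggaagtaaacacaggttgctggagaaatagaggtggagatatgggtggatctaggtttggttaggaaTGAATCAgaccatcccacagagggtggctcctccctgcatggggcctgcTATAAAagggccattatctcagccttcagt
SPRR1B: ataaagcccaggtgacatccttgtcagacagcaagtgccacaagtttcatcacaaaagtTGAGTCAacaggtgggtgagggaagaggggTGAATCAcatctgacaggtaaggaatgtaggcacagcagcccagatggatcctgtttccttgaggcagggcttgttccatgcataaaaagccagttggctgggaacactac
IVL: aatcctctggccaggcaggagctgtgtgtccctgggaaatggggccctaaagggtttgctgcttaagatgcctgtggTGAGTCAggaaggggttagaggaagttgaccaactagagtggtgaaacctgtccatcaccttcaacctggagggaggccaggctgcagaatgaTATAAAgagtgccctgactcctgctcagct
The AP-1 letters began at position -197 in SPRR2A, -79 in FLG and -123 in IVL, and at -141 and -111 in SPRR1B, counted from the base before the start. TATAAA began at -30 in SPRR2A, FLG and IVL, and was not among the letters of the SPRR1B window. Of the 13 members with AP-1 letters, 3 were called higher, 2 lower and 3 not called after WDR5 silencing. The other 5 had too few reads to test. Of the 19 matched members without these letters, 5 were higher, 4 lower, 4 not called and 6 not tested. FLG, with AP-1 letters, and LCE3D, CALML3 and ASPRV1, without them, had enough reads to test through the shWDR5 libraries alone. Only a gene higher there could do so, and all were called higher. Over all genes tested, 26.6% were higher and 29.9% lower. Of all genes with enough reads in both groups, 26.3% were higher and 31.1% lower. With these members left out as well, promoters with and without AP-1 letters were found on both sides of the comparison. The 9 unmatched members (SPRR2D, SPRR2E, TGM1, CSTA, CST6, CRCT1, ALOX15B, PRSS8, ST14) are outside these counts. All of them except CST6, PRSS8 and ST14 were called higher. The other searches, all on both strands, found CANNTG (E-box) in 24 of 32 members (75.0%) and 68.9% of all promoters, TTGCNNAA (C/EBP) in 7 (21.9%) and 10.6%, AACCNGTT or AACNGGTT (Grainyhead) in 2 (6.25%) and 1.73%, and ACCGGAAG (ETS) in 0 of 32 and 2.32%. The upstream 250 bases of SPRR2A and SPRR2F were 85.7% identical and those of SPRR1A and SPRR1B 64.2%, whereas the other pairs of matched SPRR genes lay between 43.2% and 51.6%. A match of letters is a description of the window and not evidence of a bound site.

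The libraries held 38218108 to 57640167 counted reads and 19263 to 20042 genes with at least a read. WDR5 itself was at 52.5, 48.5 and 51.3 CPM (reads scaled to a library of 1000000 reads) in the shLuc libraries and at 23.4, 24.3 and 20.7 in the shWDR5 libraries (log2 fold change -1.15 ± 0.07 (SE), adjusted p = 8.67e-07, edgeR), in the direction of the labels. Levels are given throughout as CPM scaled by edgeR's TMM factors, or per kilobase of exon (RPKM) where genes are set beside each other. All 6 basal markers (KRT5, KRT14, KRT17, TP63, CDH3, ITGB4) were expressed, at 72.1 to 4285 CPM on average in shLuc, and all 6 rose, by 0.26 to 1.29 on the log2 scale. Of 6 luminal markers, KRT19 (1.83) and MUC1 (1.28) rose and CDH1 (-1.03) and EPCAM (-0.33) fell. Of the suprabasal keratinocyte markers, KRT1 and KRT2 had 1 read each over all 6 libraries and DSG1 had 5, while KRT10 (0.21) and DSC1 (-0.13) were not called, so KRT1, a defining keratin of the spinous layer, was close to absent in both groups. Some markers of other tissues were close to absent, with 0 to 2 reads over all libraries for COL3A1, DCN, LUM and CD3E. Others were present, such as COL1A1 (22.1 CPM in shLuc) and CD68 (11.9). Of the fibroblast markers 2 of 6 were tested and COL1A1 (-0.50) fell, of the leukocyte markers 2 of 5 were tested and CD14 (-1.05) fell, and of the endothelial markers 3 of 4 were tested and PECAM1 (-0.71) fell, with none of these lists holding a gene called higher by edgeR. In bulk RNA, fewer cells of a kind and less RNA per cell cannot be told apart, and the part of these marker shifts in the results on cornification genes was not tested.

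After WDR5 silencing, 14 members were upregulated, 8 were downregulated and 8 did not pass the test, out of 30 with enough reads. Among all 16117 genes tested, 56.5% were called, 26.6% higher and 29.9% lower, so calls were common in this comparison. The members' shares were 46.7% higher and 26.7% lower. The groups did not overlap for 24 members, 14 higher and 10 lower in shWDR5, against 62.3% of all genes (29.9% higher, 32.4% lower). The widest changes were few, and 3 members (LCE3D, SPRR2E, FLG) were called with a log2 fold change above 3, where 0.248% of all genes were. Above a log2 fold change of 1 stood 10 members against 5.21% of all genes, and below -1 stood 2 members (DMKN, TGM5) against 4.27%. The filter shaped these counts and that of the 14 upregulated members. LCE3D, FLG, ASPRV1 and CALML3, 4 members, reached the filter level for testing through the shWDR5 libraries alone, which only a gene higher there could do. All 4 are among the 10 members above 1, and LCE3D and FLG are among the 3 above 3. The shares of all genes above these sizes were not worked out for genes at the filter level in both groups. An excess of large rises among the members is therefore not concluded. Among the 26 members at that level in both groups, 10 were higher (38.5%), 8 lower (30.8%) and 8 not called, where 26.3% and 31.1% of the 15055 such genes overall were called higher and lower. The median log2 fold change was 0.15 over the 30 tested members, -0.06 over these 26, and -0.01 over all genes.

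The members ranged from hardly detected to abundant in control cells. Among members at the filter level in both groups, the median shLuc level was 1.06 RPKM for the 10 upregulated, of which 5 were below 1 RPKM, 23.2 RPKM for the 8 downregulated and 3.87 RPKM for the 8 not called. Over all genes at that level the corresponding medians were 6.87, 8.28 and 4.33 RPKM. With the 4 members that passed through shWDR5 alone, whose low shLuc level the filter itself fixed, the median of the 14 upregulated members was 0.504 RPKM. In shLuc cells the highest members per length were ST14 (119 RPKM), LYPD3 (104) and PRSS8 (74.6), followed by SPRR1B (56.9), CSTA (35.1) and DMKN (34.4). In shWDR5 cells LYPD3 (111) and ST14 (98.0) still led, but CSTA (79.2) and SPRR2D (57.0) stood above PRSS8 (50.7), and SPRR2A (41.5) beside SPRR1B (41.1). The summed level of all 41 members was 1096, 1057 and 1027 CPM in shLuc and 1064, 932 and 984 in shWDR5, with overlapping groups.

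The SPRR family split by direction. SPRR2A, SPRR2D, SPRR2E and SPRR3 were upregulated, whereas SPRR1B, the most abundant SPRR in control cells, was downregulated. SPRR2D (chr1:153012201-153013594, hg19) was at 17.9, 15.0 and 16.0 CPM in shLuc and at 43.8, 33.3 and 39.4 in shWDR5, a log2 fold change of 1.25 ± 0.11 (adjusted p = 5.11e-06). SPRR2A was at 11.7, 11.7 and 12.4 in shLuc and at 32.3, 23.8 and 28.2 in shWDR5 (1.24 ± 0.11, adjusted p = 5.27e-06). Every shWDR5 library lay above every shLuc library for both genes, and shWDR5 replicate 2 was the lowest of its group each time. SPRR2E (chr1:153065611-153067004) was much scarcer, at 0.445, 0.490 and 0.743 in shLuc and at 5.76, 4.89 and 4.90 in shWDR5 (3.22 ± 0.17, adjusted p = 3.14e-07), which is 9.31-fold. SPRR3, an SPRR best known from esophagus and oral mucosa, was at 0.526, 0.284 and 0.446 in shLuc and at 1.45, 1.39 and 1.28 in shWDR5 (1.68 ± 0.21, adjusted p = 7.00e-05). Neither gene's groups overlapped. SPRR1B was at 38.7, 35.5 and 31.4 in shLuc and at 28.7, 21.8 and 25.8 in shWDR5 (-0.47 ± 0.11, adjusted p = 0.00336), with the lowest shLuc library above the highest shWDR5 library. Its close relative SPRR1A did not pass the test (-0.23 ± 0.09, adjusted p = 0.0638), and its groups overlapped. SPRR2F had 1 read in each group and SPRR4 had 1 read in shLuc and 9 in shWDR5, 7 of them in replicate 1. SPRR2G had 0 reads in shLuc and 5, 3 and 4 in the shWDR5 libraries, at least 3.46-fold higher than a floor of 3 reads over the shLuc group.

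The make-up of the SPRR pool shifted from SPRR1 toward SPRR2 transcripts. SPRR1 genes supplied 64.5%, 64.9% and 61.4% of the summed SPRR RPKM in the shLuc libraries and 34.3%, 34.7% and 34.4% in the shWDR5 libraries. SPRR2 genes supplied 35.1%, 34.8% and 38.2% in shLuc and 64.8%, 64.3% and 64.8% in shWDR5. The ratio of SPRR2 to SPRR1 RPKM thus went from 0.536 to 0.621 in control cells to 1.86 to 1.89 after silencing, and within each group the libraries lay close together. The summed SPRR level was 118 ± 7.53 RPKM in shLuc and 164 ± 22.02 in shWDR5 (SD, n = 3 each), and no shWDR5 library overlapped with a shLuc library. Within the SPRR2 genes, SPRR2E supplied 1.47 to 2.55% of the RPKM in shLuc and 6.73 to 7.86% in shWDR5, while the ratio of SPRR2D to SPRR2A overlapped between groups (1.28 to 1.52 and 1.34 to 1.39). SPRR2 transcripts are similar in sequence: 32.7% of the 50-base windows of SPRR2A, 26.8% of SPRR2D and 23.0% of SPRR2E in GENCODE occur in another SPRR transcript, and how reads with several matches were counted is not given in the sources used here. The split among SPRR2 genes is therefore uncertain. Summed into 1 row, which sets aside the split among them, the 5 SPRR2 genes of the list rose 2.51-fold (1.33 ± 0.10, adjusted p = 1.88e-06). The sum cannot correct for reads with several matches that were dropped or counted more than once. It also leaves out SPRR2B, the gene that shares most windows with SPRR2A and with SPRR2D.

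**Figure D1:**
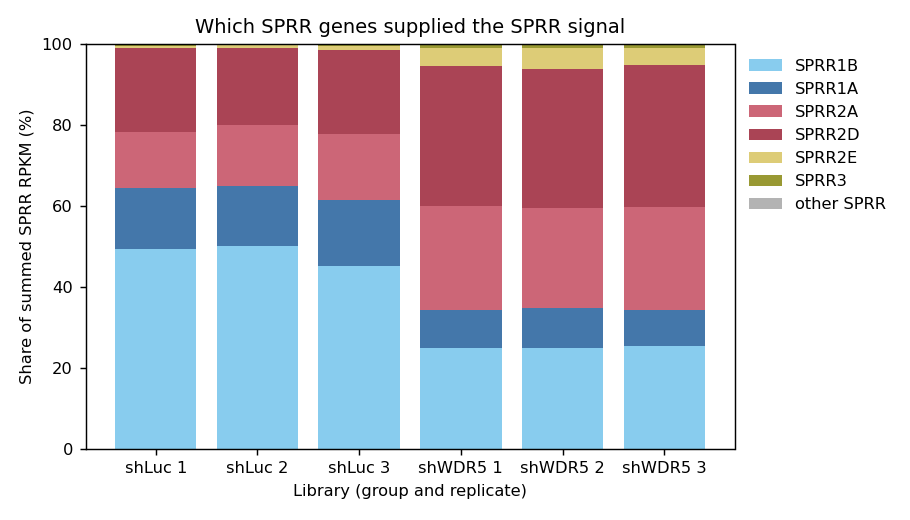
Share of the summed SPRR RPKM (percent) supplied by each SPRR gene, 1 stacked bar per library. SPRR1A and SPRR1B make up over 61% of each shLuc bar and under 35% of each shWDR5 bar, with SPRR2A, SPRR2D and SPRR2E filling the difference.

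Other cross-linked precursors moved apart as well: the late precursors LCE3D and CRCT1 rose, the classical precursor IVL fell, and SCEL and CNFN were not called. LCE3D (chr1:152551860-152552980), a late cornified envelope protein, had 5, 1 and 6 reads in the shLuc libraries and 69, 64 and 53 in the shWDR5 libraries (log2 fold change 3.71 ± 0.34, adjusted p = 8.44e-06). CRCT1, a small cysteine-rich protein encoded in the same complex, was at 0.384, 0.309 and 0.297 CPM in shLuc and at 1.86, 1.93 and 2.14 in shWDR5 (2.55 ± 0.18, adjusted p = 1.52e-06). Both genes were separated between groups by a wide margin but stayed low in absolute terms, with 2.07 RPKM for LCE3D and 2.84 RPKM for CRCT1 in shWDR5. LCE3D passed the filter through shWDR5 alone, which favours such a separation, whereas CRCT1 was at the filter level in both groups. IVL, involucrin, an early scaffold of the envelope, was at 24.9, 23.6 and 28.6 CPM in shLuc and at 20.8, 15.9 and 18.6 in shWDR5 (-0.48 ± 0.11, adjusted p = 0.00284), without overlap. SCEL, sciellin (-0.18 ± 0.09, adjusted p = 0.101), and CNFN, cornifelin (-0.22 ± 0.13, adjusted p = 0.178), did not pass the test, at 88.04% and 85.6% of control by the fit. LOR, loricrin, the main envelope protein of skin, had 1 read in shLuc and 2 in shWDR5 and was not detectable as expressed at this depth. LCE3E had 0, 2 and 2 reads in shLuc and 6, 16 and 10 in shWDR5, too few for the filter, and was called higher when no filter was applied (adjusted p = 0.00465).

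Of the filaggrin group, FLG and its protease ASPRV1 were tested and called higher, both having passed the filter through shWDR5 alone, and FLG had the largest fold change of all tested members. FLG (chr1:152274651-152297679), the filaggrin precursor that aggregates keratin filaments, had 3, 2 and 0 reads in the shLuc libraries and 49, 51 and 50 in the shWDR5 libraries (4.61 ± 0.41, adjusted p = 6.55e-06). Its 3 shWDR5 libraries were nearly equal, at 0.897 to 1.10 CPM, which over its long transcript is only 0.080 RPKM. FLG-AS1, the antisense gene that shares 704 exonic bases with FLG, also rose, from 16 to 74 reads (1.99 ± 0.43, adjusted p = 0.00244). Like FLG, FLG-AS1 passed the filter through shWDR5 alone, which only a gene higher there could do. The strand setting of the counting is not given in the sources used here, so reads in the shared bases cannot be assigned to either gene. HRNR, hornerin, a filaggrin relative, had 2, 0 and 1 reads in shLuc and 14, 11 and 13 in shWDR5, below the filter and called higher without it (adjusted p = 0.000513). RPTN, repetin, had 0 reads in shLuc and 1 in each shWDR5 library. The relative FLG2, which is not a member and was singled out after its values were seen, was at the filter level in both groups and was not called (0.35, adjusted p = 0.282). ASPRV1, the protease that processes filaggrin, was at 0.202, 0.180 and 0.124 CPM in shLuc and at 0.518, 0.264 and 0.463 in shWDR5 (1.24 ± 0.37, adjusted p = 0.0146). Its groups did not overlap, but leaving out shLuc replicate 3 or shWDR5 replicate 1 ended the call (adjusted p = 0.0580 and 0.0523).

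The transglutaminases, which form the cross-links, moved in opposite directions. TGM5 (chr15:43524793-43559055), the transglutaminase whose loss is known to cause peeling skin, was at 5.69, 4.85 and 5.18 CPM in shLuc and at 1.08, 0.967 and 0.860 in shWDR5 (-2.43 ± 0.13, adjusted p = 2.72e-07). This left 18.5% of the control level, the deepest fall among the members, and the groups were far apart. TGM1, the membrane-bound keratinocyte enzyme, was at 1.98, 1.42 and 1.04 in shLuc and at 2.91, 2.22 and 2.54 in shWDR5 (0.76 ± 0.20, adjusted p = 0.00923). The shLuc libraries spread widely for TGM1, and the gap to the lowest shWDR5 library was small. In RPKM, TGM5 stood above TGM1 in shLuc (1.89 and 0.533) and below it in shWDR5 (0.350 and 0.920). TGM3, the enzyme of hair follicle and upper epidermis, had 3 reads in shLuc and 1 in shWDR5.

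The protease inhibitors rose or did not pass the test. CSTA, cystatin A, an inhibitor of cysteine proteases and an envelope component, was at 30.2, 26.1 and 30.8 CPM in shLuc and at 66.7, 66.8 and 63.0 in shWDR5 (1.17 ± 0.07, adjusted p = 7.54e-07). It was the most abundant upregulated member per length, at 35.1 RPKM in shLuc and 79.2 RPKM in shWDR5. A2ML1, an alpha-2-macroglobulin-like inhibitor secreted in the granular layer, was at 25.4, 23.9 and 30.3 in shLuc and at 55.8, 41.1 and 51.2 in shWDR5 (0.90 ± 0.12, adjusted p = 0.000105). CST6, cystatin M/E, did not pass the test (0.20 ± 0.13, adjusted p = 0.242).

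Of the calmodulin-like proteins, CALML3 had 4, 4 and 5 reads in shLuc and 30, 15 and 25 in shWDR5 (2.20 ± 0.45, adjusted p = 0.00197), without overlap. CALML3 passed the filter through shWDR5 alone. CALML3-AS1, which shares 228 exonic bases with it on the opposite strand, rose from 124 to 574 reads (2.01 ± 0.18, adjusted p = 6.40e-06), and for this pair too the reads in the shared bases cannot be told apart. CALML5, calmodulin-like skin protein, had 1, 2 and 3 reads in shLuc and 11, 1 and 8 in shWDR5, below the filter.

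Among the secreted proteins of suprabasal layers, DMKN, dermokine, was downregulated from 90.9, 84.8 and 86.0 CPM in shLuc to 43.7, 43.4 and 40.2 in shWDR5 (-1.04 ± 0.06, adjusted p = 4.79e-07), which is 48.6% of control, with little spread in either group. SBSN, suprabasin, did not pass the test (0.00 ± 0.11, adjusted p = 0.978), with levels of 6.06 to 6.94 in shLuc and 5.61 to 7.30 in shWDR5. KRTDAP, which lies with DMKN and SBSN on chromosome 19, had 3 reads in shLuc and 4 in shWDR5.

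The lipid barrier genes mostly fell or did not pass the test. ALOX12B and ALOXE3 are lipoxygenases that act in sequence on the linoleate of barrier ceramides, and both were downregulated. ALOXE3 was at 6.09, 6.34 and 5.57 CPM in shLuc and at 3.63, 3.90 and 3.62 in shWDR5 (-0.69 ± 0.09, adjusted p = 0.000115). ALOX12B was at 2.95, 2.32 and 2.16 in shLuc and at 1.77, 1.67 and 1.43 in shWDR5 (-0.62 ± 0.15, adjusted p = 0.00581). The groups were apart for both genes. ALOX15B, a lipoxygenase of arachidonic acid from the same chromosome 17 cluster, was at 0.223, 0.284 and 0.297 in shLuc and at 0.432, 0.440 and 0.485 in shWDR5 (0.76 ± 0.25, adjusted p = 0.0238). This call rested on 34 and 67 reads and was lost with DESeq2 (adjusted p = 0.177) and without shLuc replicate 1, shWDR5 replicate 2 or shWDR5 replicate 3 (adjusted p = 0.0954, 0.0528 and 0.0707). ELOVL4, which makes very long chain fatty acids, was the most abundant lipid gene per length, at 24.0, 30.6 and 31.2 in shLuc and 22.9, 26.9 and 28.6 in shWDR5 (-0.13 ± 0.11, adjusted p = 0.357), with overlapping groups. ABCA12, the lamellar granule lipid transporter, did not pass the test (-0.17 ± 0.09, adjusted p = 0.132), and the ceramide synthase CERS3 had 0 reads in shLuc and 2 in shWDR5.

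Both membrane serine proteases were downregulated from high levels. PRSS8, prostasin, was at 152, 145 and 136 CPM in shLuc and at 108, 93.1 and 93.8 in shWDR5 (-0.56 ± 0.07, adjusted p = 8.93e-05). ST14, matriptase, which acts with prostasin in 1 cascade, was at 408, 401 and 367 in shLuc and at 339, 313 and 319 in shWDR5 (-0.28 ± 0.06, adjusted p = 0.00228). The groups did not overlap, although ST14 fell only to 82.6% of control. Of the adhesion proteins, CDSN, corneodesmosin, was at 3.68, 2.81 and 3.59 in shLuc and at 7.60, 5.86 and 6.70 in shWDR5 (0.99 ± 0.13, adjusted p = 0.000107), a 1.98-fold rise without overlap. LYPD3, a GPI-anchored protein of suprabasal keratinocytes, was at 186, 180 and 166 in shLuc and at 213, 169 and 188 in shWDR5 (0.10 ± 0.08, adjusted p = 0.332), and its groups overlapped.

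**Figure D2:**
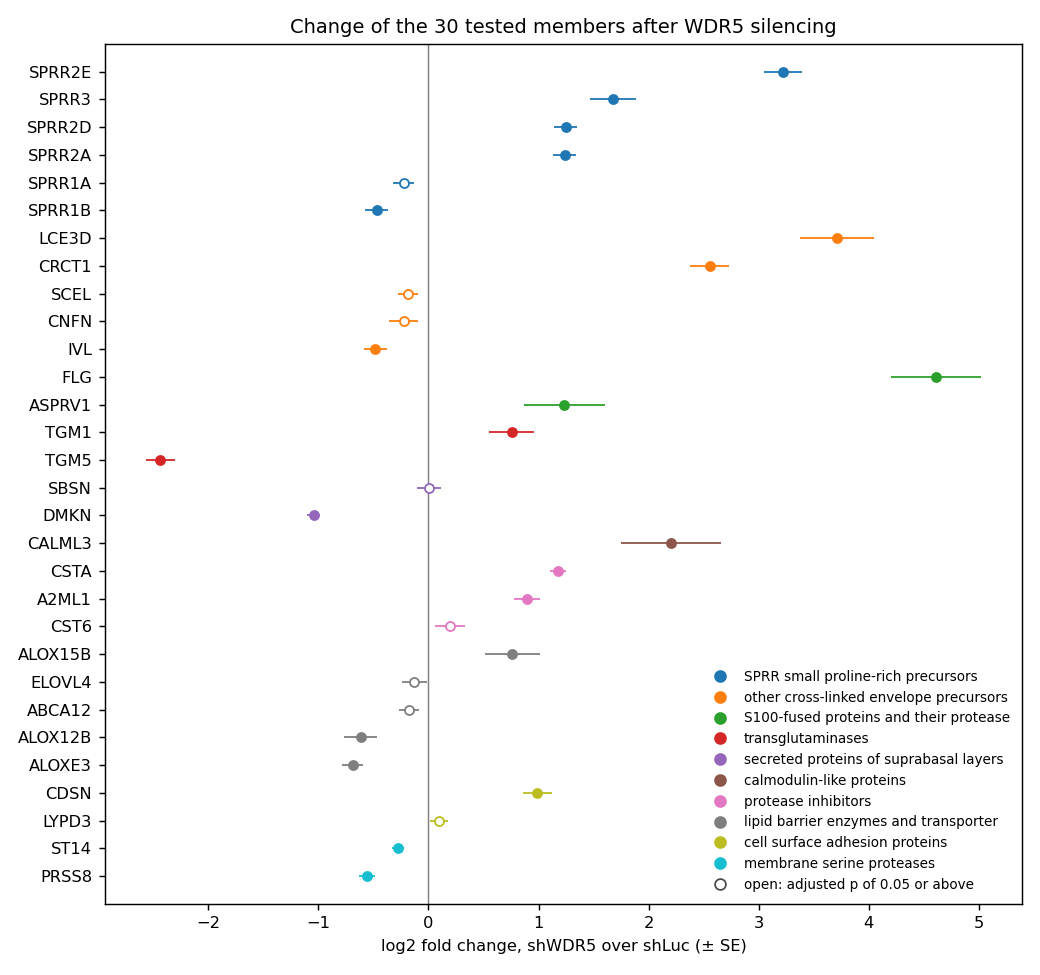
Log2 fold change (shWDR5 over shLuc, ± SE) of the 30 tested members, grouped and coloured by role; open circles did not pass the test. FLG (4.61), LCE3D (3.71) and SPRR2E (3.22) lie farthest right and TGM5 (-2.43) farthest left, and the SPRR genes, other precursors, transglutaminases and lipid genes have members on both sides of 0.

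Members within the epidermal differentiation complex were also compared with those elsewhere, as a description. The epidermal differentiation complex was taken as the stretch from RPTN to LOR on chromosome 1 (chr1:152126071-153234600, hg19), an interval chosen after the values were known. It holds 44 genes of the table, 17 of them members. Of the 10 members tested there, 7 were higher and 2 lower (median log2 fold change 1.46), and of the 20 tested members elsewhere, 7 were higher and 6 lower (median -0.06), beside 26.6% higher and 29.9% lower over all genes. At the filter level in both groups, which leaves out FLG and LCE3D in the complex and ASPRV1 and CALML3 elsewhere, 5 of 8 were higher and 2 lower in the complex, and 5 of 18 were higher and 6 lower elsewhere, beside 26.3% and 31.1% of all such genes. Of its 27 genes that were not members, 8 were tested, 6 were higher and 0 were lower by edgeR, and at the filter level in both groups, which leaves out FLG-AS1 and PRR9, 4 of 6 were higher. Those higher included LCE1F (1.82), LCE1C (1.65), LCE1B (0.87) and LCE1E (0.81), and PRR9, which had 3 reads in shLuc and 42 in shWDR5. SPRR1B and IVL were the genes of the complex that fell. SPRR1B lay between SPRR3 and SPRR2D, which rose, while the neighbours of IVL, SMCP and SPRR4, were not tested. Of the 44 genes, 26 had too few reads to test.

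**Figure D3:**
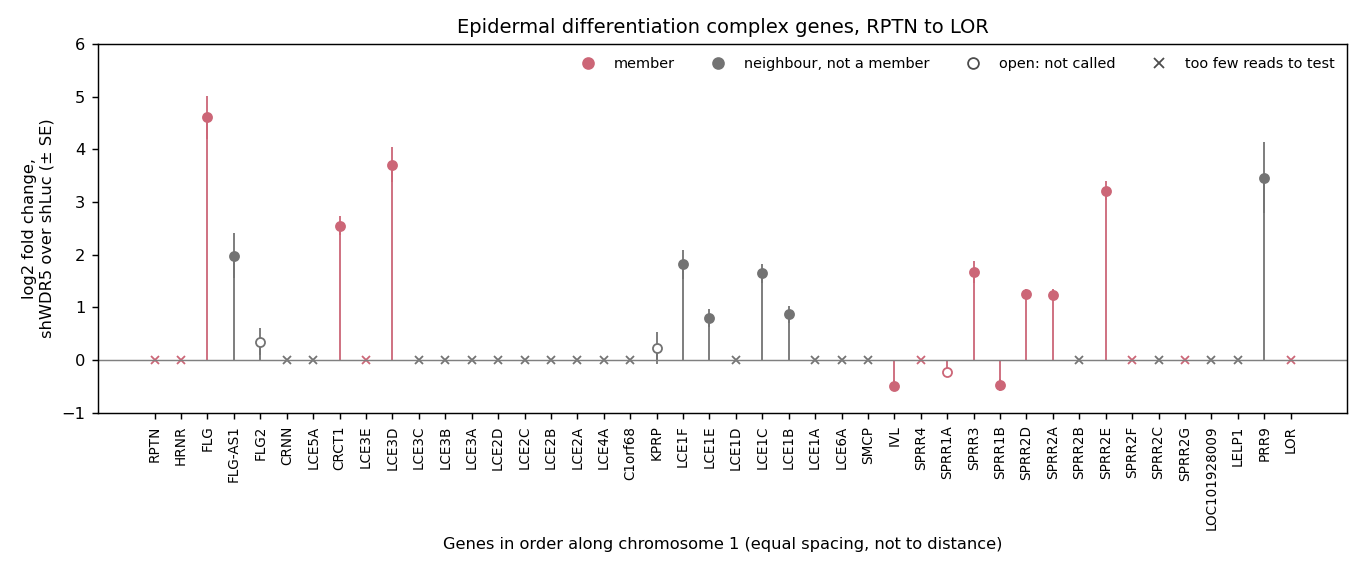
Log2 fold change (± SE) of the genes of the epidermal differentiation complex in chromosomal order, spaced evenly; crosses at 0 mark genes with too few reads to test. FLG, CRCT1, LCE3D, the tested LCE1 genes and the tested SPRR2 genes stand above 0. IVL and SPRR1B stand below, as does SPRR1A, which was not called (open circle).

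A list of 91 other cornification genes (desmosomal and cross-bridging proteins, other LCE and S100 genes, keratins, kallikreins and lipid enzymes) held calls in both directions. Of 53 tested, 17 were higher (32.1%) and 20 lower (37.7%), beside 26.6% and 29.9% of all genes. Their median log2 fold change was 0.12. Among the 48 at the filter level in both groups, 15 were higher (31.25%) and 20 lower (41.7%). The shares of all such genes were 26.3% and 31.1%. Those with the largest rise were the alarmins S100A8 (3.94 ± 0.18), S100A7 (2.01 ± 0.14) and S100A9 (1.76 ± 0.13), the elastase inhibitor PI3 (2.05 ± 0.10), the peptidoglycan-binding protein PGLYRP4 (2.58 ± 0.38), the desmosomal plaque protein PKP1 (2.41 ± 0.43), the hyperproliferative keratin KRT6A (1.83 ± 0.09), and LCE1F. S100A8 went from 0.616 ± 0.222 to 9.72 ± 0.916 CPM and PI3 from 70.4 ± 8.08 to 291 ± 36.7 (SD, n = 3 each). PGLYRP4, with 12, 3 and 6 reads in shLuc and 37, 46 and 63 in shWDR5, passed the filter through shWDR5 alone. Those with the deepest fall were the serine protease TMPRSS13 (-1.57 ± 0.08), the cholesterol sulfotransferase SULT2B1 (-1.56 ± 0.11), the ubiquitous transglutaminase TGM2 (-1.16 ± 0.07), FAM25A (-0.90 ± 0.24), ANXA9 (-0.83 ± 0.08), the glucosylceramide synthase UGCG (-0.78 ± 0.10), ECM1 (-0.76 ± 0.09) and the envelope plakin periplakin, PPL (-0.75 ± 0.05). TGM2 was far more abundant than the keratinocyte transglutaminases, at 228 RPKM in shLuc and 102 RPKM in shWDR5.

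Of 46 listed regulators of epidermal differentiation, 43 were tested, of which 20 were higher (46.5%) and 14 lower (32.6%), beside 26.6% and 29.9% of all genes, with a median log2 fold change of 0.15. Among the 41 at the filter level in both groups, 18 were higher (43.9%) and 14 lower (34.1%), beside 26.3% and 31.1% of all such genes. MAF, a transcription factor known to promote late keratinocyte differentiation, rose (1.29 ± 0.10), from 20.7 ± 1.38 to 50.4 ± 7.08 CPM. DLX5 (2.88 ± 0.44), PRDM1 (0.75 ± 0.07), RIPK4 (0.73 ± 0.06), SFN (0.65 ± 0.08) and HES1 (0.64 ± 0.15) rose as well. DLX5 was not among the 41 regulators at the filter level in both groups, where the largest log2 fold change was 1.29. OVOL1 (-1.26 ± 0.09), CEBPA (-1.15 ± 0.10), ZNF750 (-1.07 ± 0.09), BARX2 (-1.07 ± 0.15), PPARD (-1.07 ± 0.08), PPARG (-1.03 ± 0.06) and TFAP2C (-0.87 ± 0.06) fell. ZNF750, a promoter of terminal differentiation, went from 7.85 ± 0.509 to 3.73 ± 0.0718 CPM, so that known activators of the program were found on both sides.

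**Figure D4:**
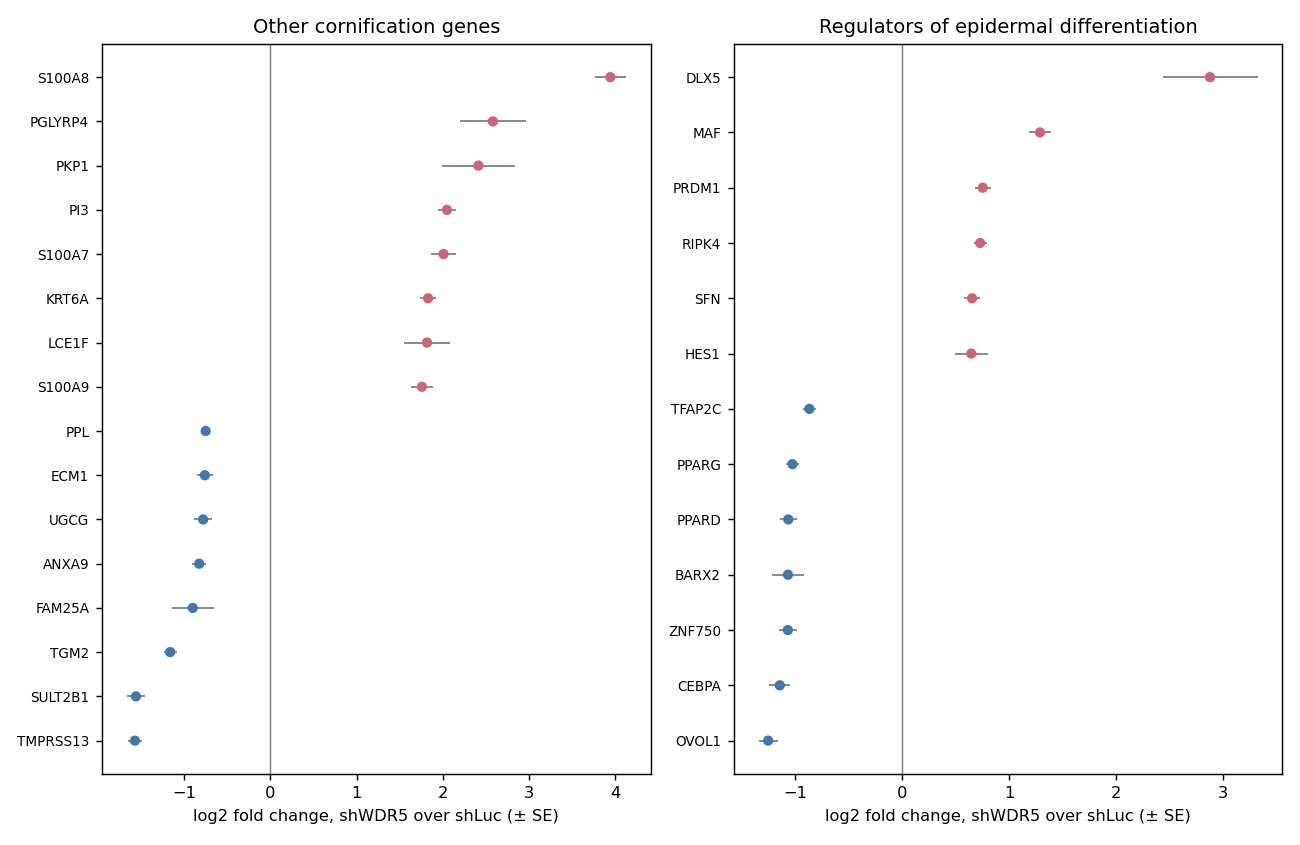
Log2 fold change (shWDR5 over shLuc, ± SE) of the genes named in the text from the lists of 91 other cornification genes (left) and 46 regulators (right); red points are higher and blue points lower in shWDR5. S100A8 (3.94) and DLX5 (2.88) lie farthest right, and TMPRSS13 (-1.57) and OVOL1 (-1.26) farthest left. DLX5 was not at the filter level in both groups.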

How the data were processed

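RNA of MCF10DCIS.com cells was poly-A selected, prepared with the TruSeq RNA kit and sequenced on an Illumina HiSeq instrument. The authors aligned reads to hg19 (GRCh37) with TopHat2 2.1.0 and counted them per gene with featureCounts, according to the submitters' processing notes and the file header; the deposited values are raw counts per gene for 6 libraries, with exonic lengths. Strand and multi-mapping settings are not given in the sources used here. A second deposited table holds the authors' own edgeR (3.2.2) results (log fold changes, mean log CPM, F statistics, p-values and false discovery rates) and was not used.

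From the counts, edgeR 4.0.16 (R 4.3.3) was run on all genes: TMM scaling, filterByExpr with a minimum count of 10 (16117 of 26334 genes kept), a quasi-likelihood F test of shWDR5 against shLuc with 3 libraries each, and Benjamini-Hochberg adjustment over all tested genes, called at an adjusted p under 0.05. Standard errors are the log2 fold change divided by the square root of F. Groups came from the library titles. Library pairs of the same group differed beyond sampling noise (chi-square per degree of freedom 7.11 to 18.2), so none was a duplicate. A count of 0 was given a floor of 3 reads over the group, which covers counting error only. The first principal component (79.2% of variance) separated the groups.

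The members and gene lists were chosen with earlier results of these data known. Every member was accounted for: tested members are named with fold change and adjusted p, called members and the most abundant of each role with the value in each library, and untested members with reads. Of the other lists, at most 8 called genes per direction with the largest change are named, and some genes under this rule are not reported here. Alternatives were other scaling (RLE), DESeq2 1.42.0, other filters, the study's thresholds, a replicate block and leaving out each library.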

Additional observations from a re-analysis of the deposited data

How the results depend on the processing

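Among the alternative values of single members, 314 kept their direction and side of the threshold, 5 newly passed it, 6 no longer did (ALOX15B and ASPRV1) and 4 turned in sign (SBSN). Settings in which a member was not tested are outside this tally. With at least 1 CPM in 3 samples, FLG, CALML3, ALOX15B and ASPRV1 were not tested. Of the 26 members tested there, 10 were higher and 8 lower. With the study's thresholds (absolute log2 fold change of at least 0.6, RPKM above 0.5), 1274 genes were higher and 1688 lower, since fewer genes meet added criteria. Of the members 10 were higher and 4 lower, of the other cornification genes 12 and 14, and of the regulators 5 and 8. The members' median log2 fold change depended on which scarce members were included: it was 0.77 with DESeq2, 0.75 without a filter, -0.044 with at least 1 CPM in 3 samples, and -0.062 for members at the filter level in both groups, an alternative chosen after seeing the data. The first 2 of these cover all 41 members and became 0.25 and 0.19 with the 3 members at 0 reads in shLuc set to their bounds. Leaving out each library in turn gave medians of 0.16 to 0.49, 13 to 16 members higher and 8 to 9 lower. SBSN, at 0.00, turned to -0.0056 without a filter and to -0.059, -0.037 and -0.071 without shLuc replicate 2, shWDR5 replicate 1 or shWDR5 replicate 3. SPRR1A was called lower without shWDR5 replicate 1 (adjusted p = 0.00963). Deviations of same-numbered libraries correlated at 0.37, 0.036 and 0.12. As a hint from the data, shLuc replicates 1 and 3 correlated best with their own number and shLuc replicate 2 with shWDR5 replicate 3 (0.21). Not every pair was over 0.1, so the numbers were not taken as pairing the samples. With the replicate block, 4901 genes were higher and 5511 lower, and 14 members were higher and 12 lower, adding SPRR1A, SCEL, ABCA12 and ELOVL4 (adjusted p = 0.0130, 0.0310, 0.0249 and 0.0459). RLE scaling made 49.3% of calls higher, compared with 47.1%. The filter left 11 members out of the test, of which 3 (HRNR, LCE3E, SPRR2G) were called higher without it.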
